A study of Mus musculus with 14 samples.

Results

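The genes described here are 10 mouse heat shock chaperones, namely Hspa1a, Hspa1b, Hspa8, Hsph1, Hsp90aa1, Hsp90ab1, Dnaja1, Dnajb1, Hspd1 and Hspe1. A gene was measured where a probe of the array was annotated to its symbol and to no other gene, and the brightest such probe on average stood for the gene. This gave 8 of the 10 genes, out of 22180 genes with such a probe, and all 8 were among the 13805 genes bright enough to be tested. Dnaja1 was read only by a probe that it shares with the microRNA gene Mir207, and Hsp90ab1 was not analysed here. The name cytosolic chaperones, under which the 10 genes were grouped, covers only part of them, because the products of Hspd1 and Hspe1 work in the mitochondrion.

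Chaperones bind proteins that are unfolded or newly made, hold them out of aggregates and help them to fold. HSP70 proteins do this in cycles of ATP hydrolysis that J-domain proteins start and nucleotide exchange factors end, and HSP90 proteins receive some of the same clients later, above all kinases and hormone receptors. Under heat or other protein-damaging stress the heat shock factor HSF1 binds DNA elements made of inverted repeats of GAA and TTC and raises the transcription of Hspa1a, Hspa1b, Dnajb1, Hsph1 and others, while Hspa8 is made at a high level in unstressed cells.

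The cells were bone marrow cells that carried Sca1 and lacked cKit, isolated by flow sorting from female mice of the athymic strain NCR-NU. The 4 groups were old tumor-bearing mice (3 arrays), old cancer-free mice (5 arrays), young tumor-bearing mice (3 arrays) and young cancer-free mice (3 arrays). All mice were nude and female, the tumors were primary and matched in size, and cancer-free mice had received Matrigel alone. The labels give age only as young or old, call the arrays biological replicates, and do not name the tumor cells. Values are log2 intensities of whole-transcriptome-amplified RNA, so a difference of 1 is a factor of 2 and one probe's level cannot be ranked against another's.

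The sort was checked only in part, because the Sca1 gene, Ly6a, was not analysed here. Kit RNA was at 5.25 to 7.03 on the 14 arrays, above the median of the whole table (3.88) on each of them. The cells were sorted by cKit protein and not by its RNA, so these values do not show how well the sort worked. RNA of the leukocyte marker Ptprc was at 10.53 to 11.36. Over the genes tested, pairs of arrays correlated at 0.886 to 0.971. The lowest mean correlation with the other arrays was that of young tumor-bearing replicate 1 (0.899), followed by old tumor-bearing replicates 3 (0.907) and 2 (0.910). In a sorted but mixed population, fewer cells of a type and less RNA per cell cannot be told apart.

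The promoters of the members were set beside each other because shared heat shock elements are the textbook link between these genes. RefSeq windows on build GRCm38.p6, each from 250 bases before a start site to a little past it, were at hand for 7 of the 10 genes (Hspa1a, Hspa1b, Hsph1, Dnaja1, Dnajb1, Hspd1 and Hspe1). A longer motif was searched on both strands, the units GAA, TTC and GAA in a row with any 2 bases between units, or TTC, GAA and TTC on the other strand. The shorter motif, which lies within it, was GAANNTTC, or TTCNNGAA on the other strand, where N is any base. The stretches of 30 bases below are printed on the strand of the gene, with the matched letters in capitals.
Hspd1: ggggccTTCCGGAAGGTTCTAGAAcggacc
Hspe1: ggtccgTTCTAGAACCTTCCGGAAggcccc
Hsph1: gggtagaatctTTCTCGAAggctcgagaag
Dnaja1: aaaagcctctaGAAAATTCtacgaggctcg
Hspa1a: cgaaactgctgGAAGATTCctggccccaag
Hspa1b: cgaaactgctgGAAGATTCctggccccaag

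The Hspd1 and Hspe1 lines are 1 stretch, chr1:55088053-55088082, read on its minus and its plus strand. These genes, which encode the large and the small subunit of the mitochondrial chaperonin, lie head to head, and the capitals start 144 bases before the start site of Hspd1 and 89 bases before that of Hspe1. The Hsph1 line is chr5:149636351-149636380 on the minus strand, with its match 33 bases before the start site. Hsph1 also held the longer motif, TTCTGGAAAGTTC at chr5:149636288-149636300, 37 to 49 bases past the start site. The Dnaja1 line is chr4:40722333-40722362 on the plus strand, and its match starts 124 bases before the start site.

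Hspa1a (chr17:34972242-34972271) and Hspa1b (chr17:34959324-34959353), both on the minus strand, carried the same 30 bases, with the match 104 bases before each start site. Over the 250 bases before the start site these paralogs differed at 3 bases. The longer motif was found in the windows of 3 members (Hspd1, Hspe1 and Hsph1), against 0.662% of 27025 genes with a window (0.603% of all 32851 windows). The shorter motif was found in 6 members, all with a window except Dnajb1, against 17.0% of the genes (15.1% of all windows). Hspd1 and Hspe1 share their stretch and Hspa1a and Hspa1b their bases, so these members are not independent. These matches are letters in a window, and binding was not measured.

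Old minus young hosts was the comparison in which members stood furthest apart. Dnajb1, the J-domain partner that hands clients to inducible HSP70, was higher on each array from old mice than on any array from young mice, by 1.51-fold on average. Hspa1a, an inducible HSP70, was 2.07-fold higher in old mice with overlapping groups, and the other 6 members differed by at most 1.24-fold in either direction. No member passed an adjusted p of 0.05 in limma, where 0.0869% of all genes tested did (12 of 13805, 2 of them higher and 10 lower). At an unadjusted p under 0.05, 2 of the 8 members were higher (Dnajb1 and Hspa1a) and 0 lower, against 4.44% and 8.97% of all genes tested. Hspa1a was bright enough to be tested only with its old arrays, so its place in this count is not independent of the age difference.

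Dnajb1 was at 6.89, 6.80 and 6.61 in old tumor-bearing mice and 7.09, 7.49, 6.94, 6.83 and 7.16 in old cancer-free mice, against 6.13, 6.60 and 6.48 in young tumor-bearing mice and 6.60, 6.29 and 5.96 in young cancer-free mice. The lowest old array, tumor-bearing replicate 3, lay just above the highest young arrays, and the other old arrays were clear of them. Groups that did not overlap in this way, with old above young, made up 0.13% of all genes tested. The averages were 6.77 ± 0.14 in old tumor-bearing, 7.11 ± 0.25 in old cancer-free, 6.40 ± 0.24 in young tumor-bearing and 6.28 ± 0.32 in young cancer-free mice (SD, n = 3, 5, 3 and 3 arrays).

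Averaged over both kinds of host, Dnajb1 differed by 0.59 ± 0.15 (log2 difference ± SE, 95% interval 0.28 to 0.91), with an adjusted p of 0.112 in limma and rank 157 by p among the genes tested. Among tumor-bearing mice the difference was 0.36 ± 0.22 (adjusted p 0.604), and among cancer-free mice it was 0.82 ± 0.20 (adjusted p 0.448, rank 28). In neither kind of host did the old and young arrays overlap. Old above young without overlap was found for 5.94% of all genes among tumor-bearing mice and for 2.9% among cancer-free mice. Dnajb1 thus did not pass the test in either kind of host or in their average, while its order by age held on all 14 arrays.

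Hspa1a was at 4.39, 5.65 and 3.78 in old tumor-bearing mice and 4.66, 6.61, 4.41, 5.25 and 4.30 in old cancer-free mice, against 3.68, 5.02 and 3.28 in young tumor-bearing mice and 4.14, 3.86 and 2.70 in young cancer-free mice. Within cancer-free mice each old array was above each young one, while within tumor-bearing mice the groups overlapped. Of the 14 arrays 9 were above the median of the table, and of the young ones only 2. The young averages, 3.99 ± 0.91 with a tumor and 3.56 ± 0.77 without, lie about that level, so the size of the age difference is not exact.

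The difference of Hspa1a between old and young was 1.05 ± 0.43 on average (adjusted p 0.318), 0.61 ± 0.64 in tumor-bearing mice (adjusted p 0.800) and 1.48 ± 0.58 in cancer-free mice (adjusted p 0.618). Without old cancer-free replicate 2, the array with the highest value, the cancer-free difference was 1.09, and without young cancer-free replicate 3, the lowest, it was 1.05. The average over both hosts kept its sign without any single array, at 0.79 to 1.30.

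Hspa1b, the paralog whose promoter is printed above beside that of Hspa1a, did not show the same order. It was at 3.35, 3.39 and 5.39 in old tumor-bearing mice and 4.29, 4.90, 3.46, 2.87 and 2.94 in old cancer-free mice, against 3.49, 3.42 and 3.75 in young tumor-bearing mice and 3.36, 3.69 and 4.38 in young cancer-free mice. Only 4 arrays, 3 old and 1 young, were above the median of the table, and all 4 groups overlapped. The difference by age was 0.19 ± 0.38 (95% interval -0.64 to 1.01, adjusted p 0.875). The interval ends just below the 1.05 found for Hspa1a, and the 2 genes were not tested against each other.

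A further probe is annotated to both Hspa1a and Hspa1b, whose coding sequences are nearly identical. It gave 4.59, 4.20 and 3.76 in old tumor-bearing mice and 3.78, 5.39, 4.42, 3.74 and 3.34 in old cancer-free mice, against 4.26, 3.61 and 3.60 in young tumor-bearing mice and 3.81, 4.25 and 3.23 in young cancer-free mice. Groups overlapped, and the difference by age was 0.36 ± 0.31 (adjusted p 0.700 over 24156 probes tested singly). Old cancer-free replicate 2 was the highest array of its group on this probe, as it was on the probes of Hspa1a, Hspa1b and Dnajb1.

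**Figure D1:**
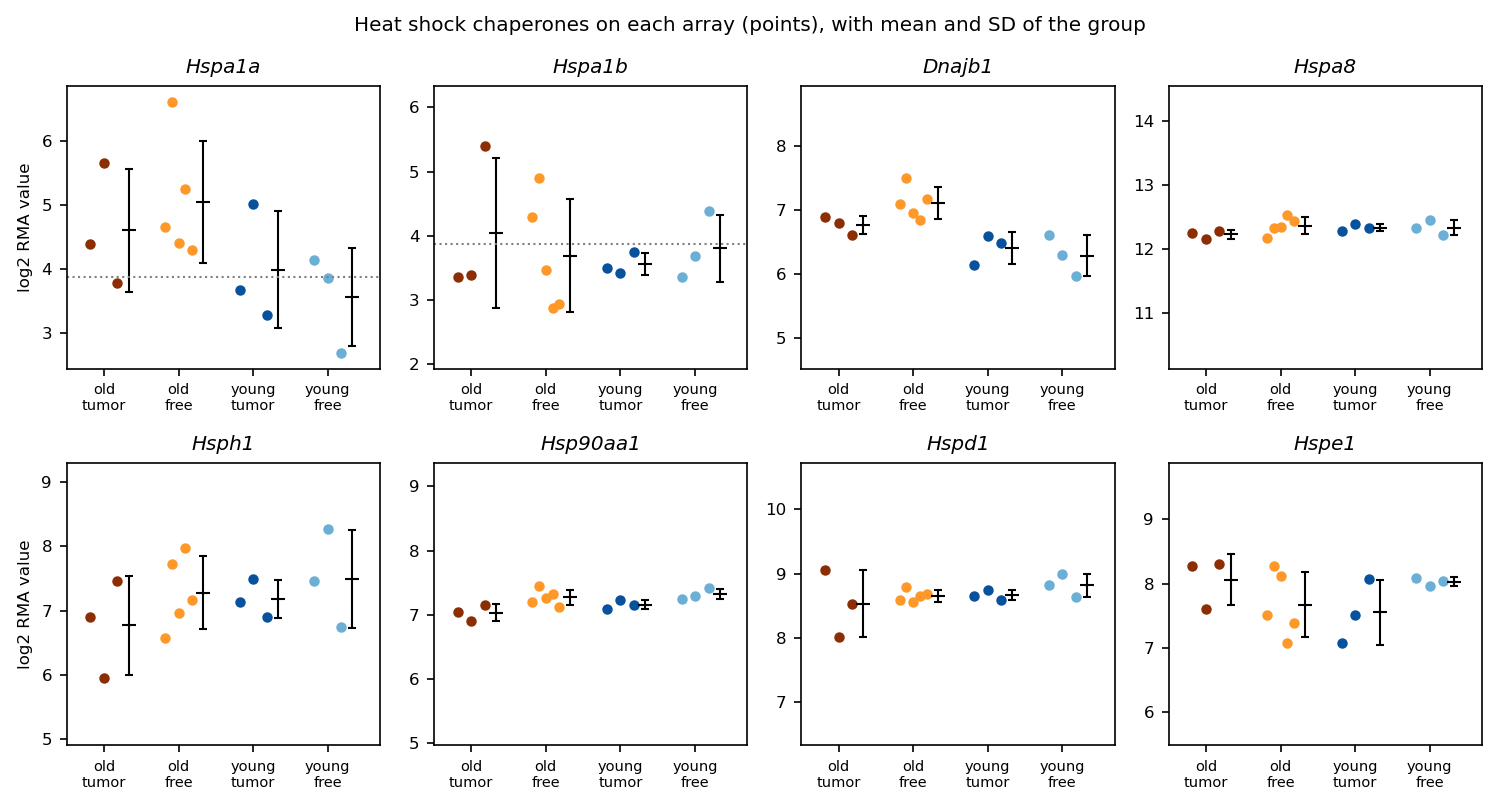
Log2 value of each chaperone on each array (points) with the mean and SD of its group (bars), by host group, each panel on its own axis and the dotted line at the median of the table (3.88) where it falls in the panel. Dnajb1 is higher on all old arrays (6.61 and above) than on all young ones, Hspa1a and Hspa1b scatter about the dotted line, and Hspa8 and Hsp90aa1 stay within a narrow band.

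Immediate early genes, which cells transcribe within minutes of a stimulus, moved in part with these values. Their mean over 19 genes was 6.94 (6.55 to 7.30) in old tumor-bearing mice and 7.48 (7.13 to 7.92) in old cancer-free mice, against 6.78 (6.27 to 7.06) in young tumor-bearing mice and 6.76 (6.54 to 6.94) in young cancer-free mice. The highest array, old cancer-free replicate 2 at 7.92, was also the highest for Dnajb1 and Hspa1a. In the age average 9 of the 19 were higher and 1 lower at an unadjusted p under 0.05 in limma, against 4.44% and 8.97% of all genes tested. Among cancer-free mice 8 were higher and 1 lower, against 2.48% and 5.17% of all genes. Among tumor-bearing mice 1 was higher and 0 lower, against 10.1% of all genes in either direction. In each of these comparisons 0 of the 19 passed the adjusted test. The part of the immediate early genes in the values of Dnajb1 and Hspa1a was not tested.

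Markers of other cell types were set beside the members, although at most 1 marker of any list passed the test. The mean of 10 plasmacytoid dendritic cell markers was 6.78 (6.60 to 6.90) in old tumor-bearing and 6.96 (6.21 to 7.62) in old cancer-free mice, against 7.95 (7.73 to 8.38) in young tumor-bearing and 7.97 (7.43 to 8.34) in young cancer-free mice. The mean of 9 T cell markers was 7.91 (7.82 to 8.08) in old tumor-bearing and 8.03 (7.45 to 8.62) in old cancer-free mice, against 7.07 (6.70 to 7.66) in young tumor-bearing and 7.76 (7.45 to 8.14) in young cancer-free mice. The mean of 9 monocyte and macrophage markers was 6.11 (5.79 to 6.47) in old tumor-bearing and 6.26 (5.96 to 7.06) in old cancer-free mice, against 6.79 (6.60 to 6.90) in young tumor-bearing and 6.88 (6.54 to 7.16) in young cancer-free mice. Of these lists 1 gene passed the adjusted test in the age average, the integrin gene Itgam, which fell by 0.96 on the log2 scale in old mice (adjusted p 0.0387 in limma). In a list of cell cycle genes 18 of 19 tested were lower and 0 higher at an unadjusted p under 0.05 in limma, against 8.97% and 4.44% of all genes. Of these Kif23 (-1.66, adjusted p 0.0308) and Nuf2 (-1.57, adjusted p 0.0497), both needed for cell division, passed the adjusted test. These calls are not stable: of 24 alternatives Itgam was not called in 15 (adjusted p up to 0.126), Kif23 in 13 (up to 0.0819) and Nuf2 in 19 (up to 0.157), and none of the 3 was called without young cancer-free replicate 3 or with the replicate number as a block. The part of these cells in the chaperone values was not tested.

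On the probes used, the constitutive HSP70 and the HSP90 gene varied least across the hosts among the 8 members. Hspa8, the cognate HSP70 that also uncoats clathrin vesicles, was at 12.24, 12.16 and 12.29 in old tumor-bearing mice and 12.17, 12.33, 12.35, 12.53 and 12.44 in old cancer-free mice, against 12.28, 12.39 and 12.33 in young tumor-bearing mice and 12.34, 12.45 and 12.22 in young cancer-free mice. All groups overlapped and the whole range was 0.37. The difference by age was -0.04 ± 0.10 (95% interval -0.26 to 0.18, adjusted p 0.907).

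Hsp90aa1, the stress-responsive cytosolic HSP90, was at 7.04, 6.90 and 7.16 in old tumor-bearing mice and 7.20, 7.44, 7.25, 7.32 and 7.12 in old cancer-free mice, against 7.09, 7.22 and 7.16 in young tumor-bearing mice and 7.25, 7.30 and 7.41 in young cancer-free mice. Its difference by age was -0.09 ± 0.10 (95% interval -0.31 to 0.14, adjusted p 0.757). The spread between arrays of a group was 0.11 (pooled SD) for both genes, against a median of 0.34 over all genes tested. Only 0.478% of the genes tested varied less than Hspa8 and 0.529% less than Hsp90aa1. For Hspa8 this holds for its brightest probe. Its other probes annotated to no further gene ran from 12.14 to 12.55, from 9.97 to 10.60 and from 10.74 to 11.62. At the other end, Hspa1b (0.80) and Hspa1a (0.91) varied more than 96.2% and 97.6% of the genes.

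Hsph1, an HSP110 protein that acts as a nucleotide exchange factor for HSP70, was at 6.91, 5.95 and 7.47 in old tumor-bearing mice and 6.57, 7.73, 6.97, 7.97 and 7.16 in old cancer-free mice, against 7.13, 7.50 and 6.91 in young tumor-bearing mice and 7.46, 8.27 and 6.75 in young cancer-free mice. Its groups overlapped throughout, with a pooled SD of 0.62, above that of 89.3% of the genes. The difference by age was -0.31 ± 0.30 (adjusted p 0.702).

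For the mitochondrial chaperonin pair the age difference was within the spread between arrays. Hspd1 was at 9.05, 8.01 and 8.52 in old tumor-bearing mice and 8.58, 8.79, 8.56, 8.65 and 8.69 in old cancer-free mice, against 8.65, 8.75 and 8.59 in young tumor-bearing mice and 8.83, 8.99 and 8.63 in young cancer-free mice. Its difference was -0.15 ± 0.15 (adjusted p 0.715), and old tumor-bearing mice held both its lowest and its highest array.

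Hspe1 was at 8.28, 7.61 and 8.31 in old tumor-bearing mice and 7.51, 8.27, 8.12, 7.07 and 7.39 in old cancer-free mice, against 7.07, 7.52 and 8.07 in young tumor-bearing mice and 8.09, 7.96 and 8.04 in young cancer-free mice. The young cancer-free arrays lay close together (8.03 ± 0.07, SD) and the other groups spread more widely. The average difference by age was 0.08 ± 0.22 (adjusted p 0.914), made of 0.51 ± 0.33 in tumor-bearing mice (adjusted p 0.625) and -0.36 ± 0.29 in cancer-free mice (adjusted p 0.789).

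In the single age comparisons no member passed in limma either, and 0% of all genes did. Among tumor-bearing mice 0 of 8 members reached an unadjusted p under 0.05, against 10.1% of all genes. Among cancer-free mice 2 did (Dnajb1 and Hspa1a, both higher in old mice), against 2.48% of all genes higher and 5.17% lower. Here too Hspa1a was among the genes tested only through its old arrays. The members' median difference was 0.02 in the average (all genes -0.01), 0.13 in tumor-bearing mice (all genes 0.00) and -0.08 in cancer-free mice (all genes -0.04). The tumor-bearing median turned to -0.13 without old tumor-bearing replicate 3.

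**Figure D2:**
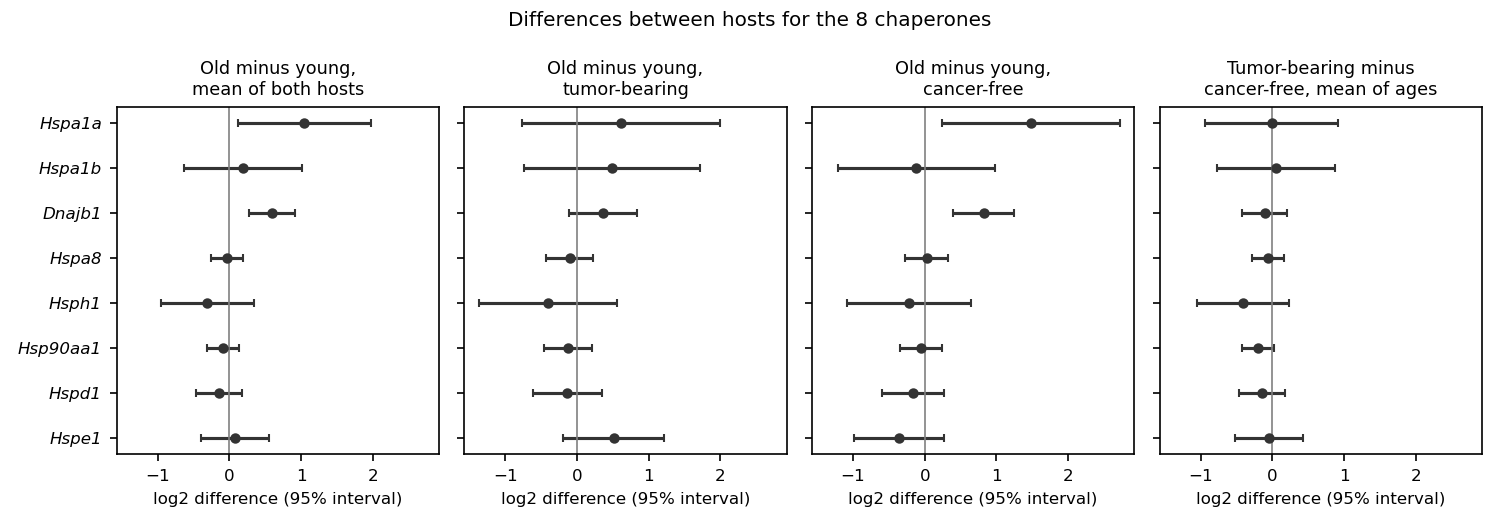
Log2 difference of each chaperone (points) with its 95% interval (bars) for old minus young as a mean of both hosts, in tumor-bearing and in cancer-free mice, and for tumor-bearing minus cancer-free as a mean of ages. The intervals of Dnajb1 (0.28 to 0.91) and Hspa1a (0.12 to 1.97) lie above 0 in the age average before any adjustment, and every interval of the tumor average includes 0.

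Tumor-bearing minus cancer-free hosts gave no difference as large as those of Dnajb1 and Hspa1a with age. Hsph1 (-0.41), Hsp90aa1 (-0.20) and Hspa8 (-0.07) differed more with a tumor than with age in these averages, and the other members less. Of the 8 members 7 were lower with a tumor (4 of 8 after each array was centred on its median), against 51.1% of all genes tested. The lowest were Hsph1 (1.33-fold) and Hsp90aa1 (1.15-fold), and both kept their sign under each scaling tried. No member passed the adjusted test in limma, and 0% of all genes did. At an unadjusted p under 0.05 there were 0 of 8 members, against 10.2% of all genes. The members' median was -0.09, against -0.01 over all genes.

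Hsp90aa1 averaged 7.03 ± 0.13 in old tumor-bearing and 7.16 ± 0.07 in young tumor-bearing mice, against 7.27 ± 0.12 in old cancer-free and 7.32 ± 0.08 in young cancer-free mice. The average difference was -0.20 ± 0.10 (95% interval -0.42 to 0.02, adjusted p 0.528), or -0.10 with cyclic loess scaling. In young mice each tumor-bearing array was below each cancer-free one, as for 7.37% of all genes, with a difference of -0.16 ± 0.15 (adjusted p 0.919). In old mice the arrays overlapped and the difference was -0.24 ± 0.14 (adjusted p 0.606).

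Hsph1 averaged 6.77 ± 0.77 in old tumor-bearing and 7.18 ± 0.30 in young tumor-bearing mice, against 7.28 ± 0.57 in old cancer-free and 7.49 ± 0.76 in young cancer-free mice. Its average difference, -0.41 ± 0.30 (adjusted p 0.650), was within the spread between arrays. Dnajb1 differed by -0.34 ± 0.20 with a tumor in old mice (adjusted p 0.603) and by 0.12 ± 0.22 in young mice (adjusted p 0.949). Hspa1a differed by -0.44 ± 0.58 in old mice and by 0.43 ± 0.64 in young mice, with an average of -0.01 ± 0.43 (adjusted p 0.995). Hspa8, Hspa1b, Hspd1 and Hspe1 differed by -0.14 to 0.05 on average.

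In young mice 0 of 8 members passed and 0 were under an unadjusted p of 0.05 in limma, against 0% and 5.4% of all genes. In old mice the counts were likewise 0 and 0, against 0% and 9.76%. The members' median was -0.16 in young mice (all genes -0.02) and -0.18 in old mice (all genes 0.01).

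Whether a tumor acted differently by age was tested with an interaction term, the difference with a tumor in old mice minus that in young mice. No member passed in limma, as 0% of all genes did, and 0 of 8 were under an unadjusted p of 0.05, against 4.42% of all genes. Hspe1 stood furthest out, at 0.87 ± 0.44 (95% interval -0.07 to 1.82, adjusted p 0.976), made of 0.39 ± 0.29 with a tumor in old mice and -0.48 ± 0.33 in young mice. Dnajb1 (-0.46 ± 0.29, adjusted p 0.976) and Hspa1a (-0.87 ± 0.86, adjusted p 0.986) were on the negative side.

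Probes shared with another gene were set apart, because their signal cannot be assigned. The probe of Dnaja1 and Mir207 was at 7.83, 7.54 and 7.71 in old tumor-bearing mice and between 7.92 and 8.14 on the 5 arrays of old cancer-free mice, against 7.54, 7.66 and 7.75 in young tumor-bearing mice and 7.82, 7.83 and 7.61 in young cancer-free mice. Each old cancer-free array was above every other array, as for 0.141% of the 24156 probes tested singly. Dnaja1 encodes a J-domain protein of the cytosol that farnesylation can anchor to membranes. On this probe, old minus young was 0.16 ± 0.10 on average (adjusted p 0.579 over 24156 probes) and 0.27 ± 0.13 in cancer-free mice (adjusted p 0.734), and tumor-bearing minus cancer-free was -0.22 ± 0.10 on average (adjusted p 0.536).

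Hspa8 had 4 probes of its own, and on these the age average was -0.05 to 0.00. With a tumor the 4 probes were at -0.32 to -0.07, and the lowest, -0.32 ± 0.14, had an adjusted p of 0.527 over the 24156 probes. A further Hspa8 probe is shared with Snord14e, a small nucleolar RNA gene that lies in an intron of Hspa8. That shared probe was at 10.76, 9.78 and 10.92 in old tumor-bearing mice and 10.52, 10.87, 10.54, 11.45 and 10.88 in old cancer-free mice, against 10.81, 10.05 and 7.94 in young tumor-bearing mice and 9.81, 9.43 and 9.22 in young cancer-free mice. Among cancer-free mice each old array was above each young one, as for 3.07% of the probes, and among tumor-bearing mice the arrays overlapped. The difference by age was 1.13 ± 0.39 on average (adjusted p 0.305) and 1.36 ± 0.52 in cancer-free mice (adjusted p 0.694), where the 4 probes of Hspa8 alone were at -0.02 to 0.03.

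**Figure D3:**
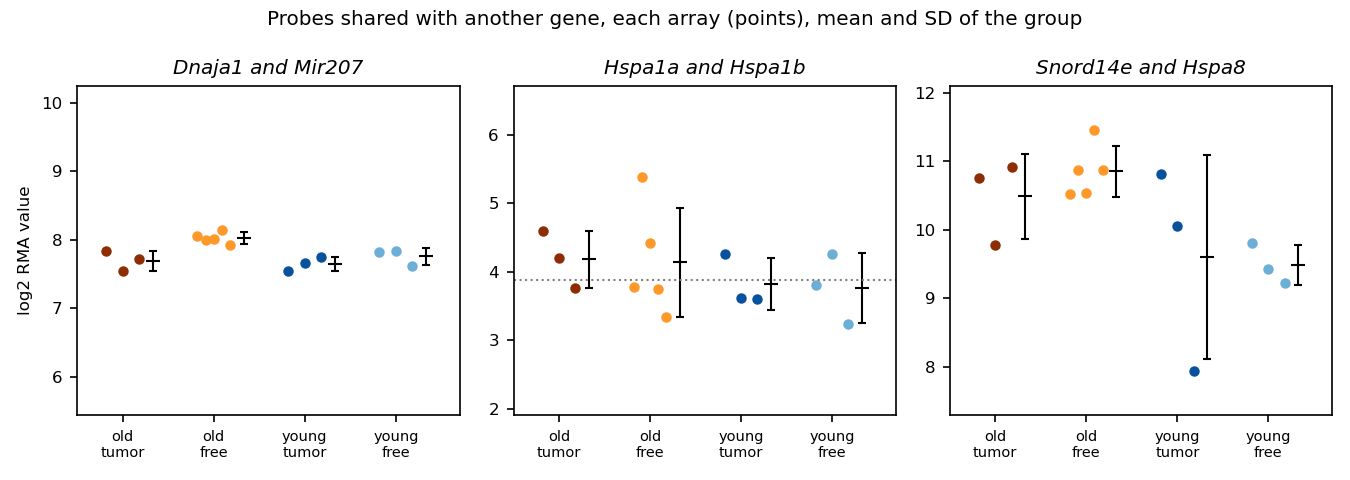
Log2 value on each array (points) with the mean and SD of its group (bars) for the 3 probes annotated to a chaperone and to another gene, by host group, with the dotted line at the median of the table (3.88) in the middle panel. The old cancer-free arrays are the top 5 on the Dnaja1 and Mir207 probe (7.92 to 8.14), and 1 young tumor-bearing array (7.94) lies far below the rest on the Snord14e and Hspa8 probe.

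The members did not move as 1 block from array to array. Over the 28 pairs of members, Pearson's r across the 14 arrays had a median of 0.07, from -0.41 to 0.81, and was above 0 in 19 pairs. Each r is over the same 14 arrays and the same normalization. Hspa1a and Hspa1b, with their near-identical promoters, gave r = -0.05. Both scattered about the median of the table, above it on 9 and 4 arrays, so this r cannot show whether the 2 genes move apart.

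Hspa8 and Hsph1 had the highest r, 0.81 (p = 0.00052, permutation test with 100000 resamples, adjusted over the 28 pairs 0.0146), and Spearman's rho was 0.79 (permutation p = 0.00118, adjusted 0.033). It was 0.80 after each group's mean was taken out and 0.70 without the 2 arrays farthest from the median of Hspa8 (permutation p = 0.0112). Hsph1 spread over 2.32 across the arrays and Hspa8 over 0.37, so the pair shared an order and not a size of difference.

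Hspa1a and Dnajb1 gave r = 0.78 (permutation p = 0.00111, adjusted 0.0155) and rho = 0.70 (permutation p = 0.00645, adjusted 0.0903). Within groups r was 0.64. Without the 2 arrays farthest from the median of Hspa1a it was 0.51 (permutation p = 0.0955), no longer under 0.05. Leaving out the ends of a range tends to lower r, and 12 arrays remained. How far the relation rests on those 2 arrays is therefore not settled.

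**Figure D4:**
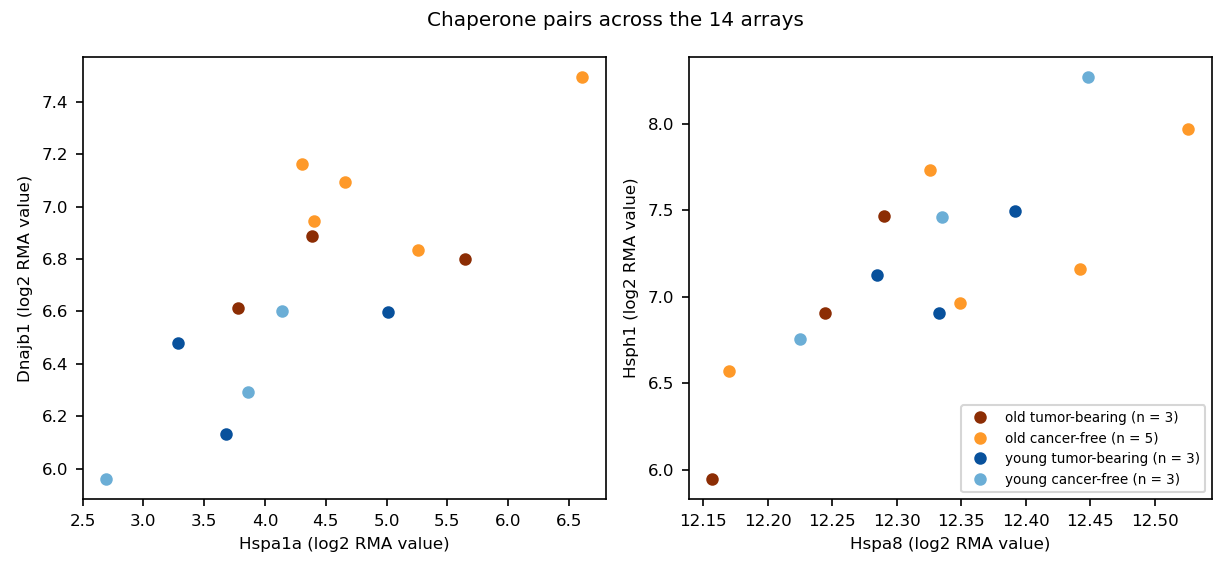
Log2 values of Dnajb1 against Hspa1a (left) and of Hsph1 against Hspa8 (right), 1 point per array, colored by host group. The left panel (r = 0.78) has old cancer-free replicate 2 alone at its upper right, and the right panel (r = 0.81) mixes the groups along its length.

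The members' mean was taken over values centred but not scaled. Hspa1a and Hspa1b, which spread most (pooled SD 0.91 and 0.80), therefore weigh most in it. Each member correlated with the mean of the others at only 0.12 to 0.48. Among genes outside the list, those most like the members' mean over the 14 arrays were Acad11 (r = 0.85), Mafg (0.83), Dctn5 (0.81), Cptp (0.81), Nfkbiz (0.81), Popdc2 (0.81), Vps72 (0.81) and Ndfip1 (0.80). For Hspa1b alone they were Tmem189 (r = 0.89), Pdk4 (0.88), Nsdhl (0.87) and Kcng3 (0.83). These are the highest correlations among the genes tested once some kinds of gene were passed over, and are given as a description. Passed over were predicted genes, olfactory and vomeronasal receptors, small RNA genes and genes of the mitochondrial genome.

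The wider chaperone network was described from lists of its parts. In none of them did a gene pass the adjusted test in limma, in any of the 7 comparisons. For the age average, 3 of 84 genes in these lists were higher at an unadjusted p under 0.05 and 5 lower, against 4.44% and 8.97% of all genes tested. For the tumor average 3 were higher and 6 lower, against 10.2% of all genes in either direction.

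HSP90 co-chaperones held the gene nearest to the threshold, Stip1, which bridges HSP70 and HSP90 so that clients pass between them. Stip1 was at 7.397, 7.408 and 7.332 in old tumor-bearing mice and 7.524, 7.949, 7.957, 7.968 and 7.925 in old cancer-free mice, against 8.123, 8.424 and 8.066 in young tumor-bearing mice and 7.974, 8.353 and 8.620 in young cancer-free mice. Each old array was below each young one, the opposite order to that of Dnajb1, although the closest old and young cancer-free arrays nearly touched. This order was read on the deposited scaling alone. Median centring moved the median of all genes by 0.11 for age in cancer-free mice. Of all genes tested 0.398% lay lower in old mice without overlap. The difference was -0.64 ± 0.13 (adjusted p 0.0768), and -0.45 ± 0.18 in cancer-free mice (adjusted p 0.623). Ppid, a cyclophilin that binds HSP90, was higher by 0.39 ± 0.15 (adjusted p 0.276). Of the 12 genes tested 9 were lower in old mice (7 under each of 2 other scalings), with a median of -0.14 against -0.01 over all genes.

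With a tumor, 11 of the 12 HSP90 co-chaperones were lower (10 under either other scaling), against 51.1% of all genes tested. Their median was -0.30 against -0.01 over all genes. At an unadjusted p under 0.05 in limma 3 were lower, against 10.2% of all genes in either direction. Chordc1, an HSP90 co-chaperone with zinc-binding domains, differed by -0.62 ± 0.24 (adjusted p 0.411), and Ppid by -0.36 ± 0.15 (adjusted p 0.438).

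The cytosolic chaperonin TRiC and its partner prefoldin, which fold actin and tubulin, had 13 genes tested. In the age average 10 of 13 were lower under each scaling, with a median of -0.22 against -0.01 over all genes. In cancer-free mice all 13 were lower in old hosts, but 10 after median centring and 8 with cyclic loess. Their median there was -0.26 against -0.04 over all genes. With a tumor all 13 were lower, or 12 under either other scaling, against 51.1% of all genes tested. The median with a tumor was -0.26 against -0.01 over all genes. The chaperonin subunit Cct3 was at 5.07, 4.93 and 5.38 in old tumor-bearing mice and 5.52, 5.13, 5.64, 5.88 and 5.77 in old cancer-free mice, against 6.61, 5.60 and 5.93 in young tumor-bearing mice and 6.07, 5.96 and 5.52 in young cancer-free mice. Among tumor-bearing mice each old array was below each young one, as for 7.1% of all genes tested, and among cancer-free mice the arrays overlapped. The difference by age was -0.59 ± 0.18 (adjusted p 0.197).

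Cct2, another subunit, differed by -0.42 ± 0.16 with age (adjusted p 0.282), and Cct7 by -0.58 ± 0.20 in cancer-free mice (adjusted p 0.581). With a tumor, the prefoldin subunit Pfdn2 differed by -0.52 ± 0.16 (adjusted p 0.370) and Cct5 by -0.38 ± 0.15 (adjusted p 0.421).

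Among the regulators, Hsbp1, which binds HSF1 and restrains it, differed by 0.39 ± 0.16 between old and young (adjusted p 0.321) and by 0.34 ± 0.22 in cancer-free mice (adjusted p 0.729). Hsf2, a second heat shock factor, differed by -0.47 ± 0.30 with age (adjusted p 0.519) and by 0.30 ± 0.30 with a tumor (adjusted p 0.737). Among 7 nucleotide exchange factors and co-chaperones of HSP70, Bag6, which guards hydrophobic proteins on their way to membranes or to the proteasome, differed by -0.57 ± 0.15 with age (adjusted p 0.125). Bag1, an exchange factor, was at -0.30 ± 0.22 in cancer-free mice (adjusted p 0.758). With a tumor, Hspbp1, an HSP70 nucleotide exchange factor, differed by 0.52 ± 0.19 (adjusted p 0.406).

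Of 17 other J-domain genes tested 13 were lower in old mice (9 with cyclic loess), with a median of -0.13 against -0.01 over all genes. Of the 17, 0 were under an unadjusted p of 0.05 in limma. The nearest in this list were Dnajb12, a J-domain protein of the endoplasmic reticulum membrane, with age (-0.33 ± 0.18, adjusted p 0.453), Dnajb2 with age in cancer-free mice (0.53 ± 0.25, adjusted p 0.650) and Dnaja4 with a tumor (-0.32 ± 0.16, adjusted p 0.519). Over 6 further genes of the HSP70 family, Hspa2, known for its role in male germ cells, differed by -0.24 ± 0.14 with age (adjusted p 0.501), and Hspa12b, a distant HSP70 relative, by 0.21 ± 0.17 in cancer-free mice (adjusted p 0.786). Hspa13, an HSP70 relative of the microsomes, differed by 0.51 ± 0.20 with a tumor (adjusted p 0.411).

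Chaperones of the organelles lay near 0 as lists. The median over 9 mitochondrial chaperones and proteases was -0.02 with age and 0.04 with a tumor. Clpb, a disaggregase of the mitochondrion, was at -0.10 ± 0.16 with age (adjusted p 0.822) and at 0.44 ± 0.16 with a tumor (adjusted p 0.406), and Clpp, a protease of the matrix, was at -0.23 ± 0.25 with age in cancer-free mice (adjusted p 0.852). Over 11 chaperones of the endoplasmic reticulum the median was 0.01 with age and 0.03 with a tumor. Within that list Hspa5, the HSP70 of the endoplasmic reticulum, differed by 0.53 ± 0.18 between old and young mice (adjusted p 0.238), by 0.50 ± 0.24 in cancer-free mice (adjusted p 0.656) and by -0.35 ± 0.18 with a tumor (adjusted p 0.526).

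The 6 small heat shock proteins tested had a median of 0.15 with age, and 0 were under an unadjusted p of 0.05. Cryaa, the alpha-crystallin best known from the lens, differed by 0.21 ± 0.15 with age (adjusted p 0.588) and by 0.34 ± 0.20 in cancer-free mice (adjusted p 0.710), and Hspb6, known from muscle, by 0.11 ± 0.15 with a tumor (adjusted p 0.806).

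**Figure D5:**
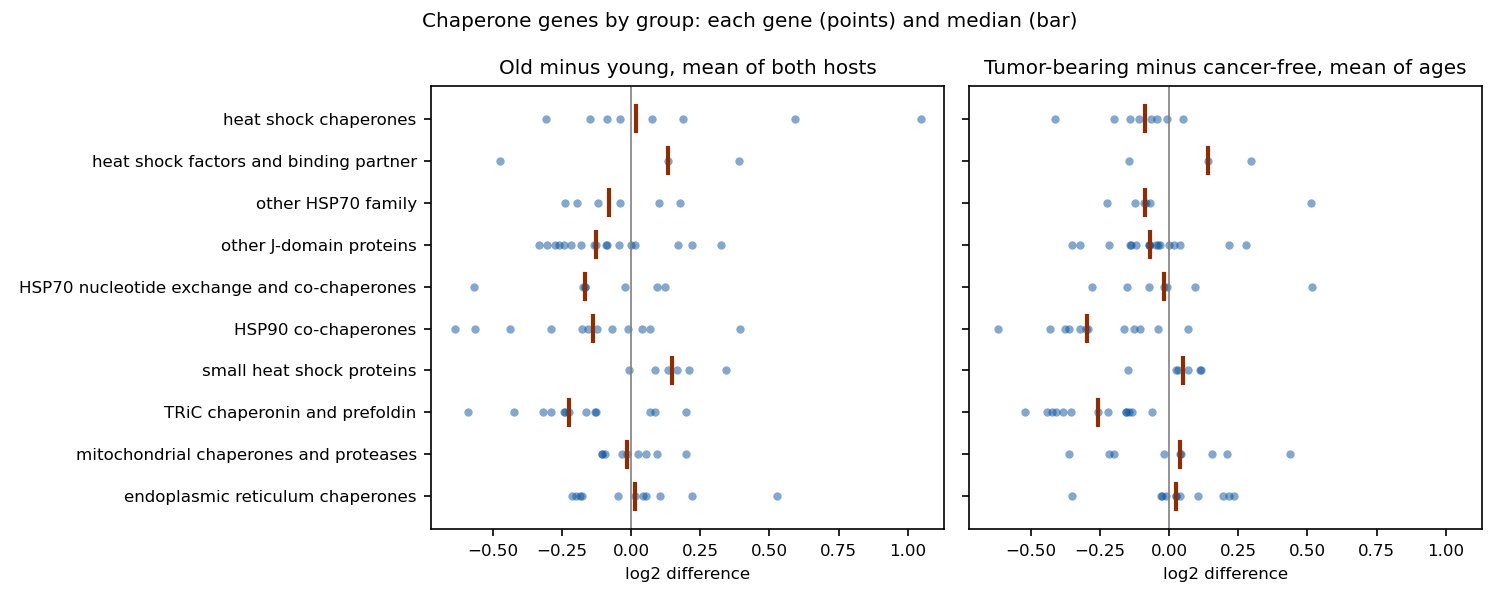
Log2 difference of each gene tested (points) and the median (bar) for the chaperones described here and 9 further lists, for old minus young as a mean of both hosts (left) and tumor-bearing minus cancer-free as a mean of ages (right). Dnajb1 and Hspa1a are the 2 points at the far right of the top row on the left, and the 13 TRiC and prefoldin points on the right are all below 0, which 1 leaves under either other scaling.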

How the data were processed

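RNA of sorted Sca1+ cKit- marrow cells was measured on 14 one-color arrays. The authors deposited log2 values. Per the submitters' processing notes these came from RMA, run with oligo 1.32.0 and R 3.2.0. Sources used here do not say which arrays entered 1 normalization. Values ran from 0.29 to 13.78, as log2 RMA values do. Of 41345 probes, 23521 carried 1 gene symbol in the platform annotation, 1814 several and 16010 none, and 23328 of the first had an Entrez identifier in the RefSeq table. Probe positions and build of the array were not used here.

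A gene was tested if at least 3 arrays had its brightest probe above 3.88, the median over the whole table. Hspa1a and Hspa1b reached this only with their old arrays. Using limma 3.58.1 (R 4.3.3), a model with 1 mean per group was fitted (eBayes, no trend; residual degrees of freedom 10, prior 3.86). P-values are two-sided, adjusted by Benjamini and Hochberg over 13805 genes within each of 7 comparisons, at 0.05. "Lower" and "higher" give the sign of a difference of means. The fit was tested on simulated data.

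The members and lists were chosen with earlier results of these data known. All members are named, together with, from each chaperone list, the 1 or 2 genes with the smallest p in the age and tumor averages and the cancer-free age comparison. Stip1, Cct3 and other named genes follow that rule, and the genes most alike were taken by their correlation. Lists of immediate early genes, cell cycle genes and cell type markers were set beside the members as a description, and only some of the lists measured are given. Alternatives were other filters, scalings, priors and array weights, the mean of probes, the replicate number as a block, only the groups compared, array correlation as a covariate and leaving out arrays. Testing every probe singly was chosen after seeing the data. Arrays give no counts, so their number limits the precision, and p-values measure the spread between arrays.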

Additional observations from a re-analysis of the deposited data

How the results depend on the processing

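Over 24 or 25 alternatives per comparison, 1362 differences of members were recomputed and 0 passed the threshold; the lowest adjusted p was 0.0767, for Dnajb1 by age with cyclic loess (0.73). The sign turned in 79 of them, in 28 of 56 results, none of which had exceeded its SE. Dnajb1 by age was 0.51 to 0.73 (adjusted p 0.0767 to 0.255) and Hspa1a 0.79 to 1.30 (adjusted p 0.123 to 0.50). The members' median difference between old and young tumor-bearing mice, 0.13, was -0.15 without the 2 least correlated arrays and -0.13 to 0.17 with 1 array left out; the cause was not tested. Genes called for age numbered 12, and 0 to 74 under the alternatives: 74 without old tumor-bearing replicate 3, 57 with array weights, 43 without the 2 least correlated arrays, 2 with cyclic loess, 1 with median centring and 0 without young cancer-free replicate 3. Between old and young tumor-bearing mice up to 7 were called, and up to 4 between old tumor-bearing and old cancer-free mice. Median centring moved the median of all genes by 0.11 for age in cancer-free mice and by 0.11 for tumor in young mice. The stricter filter (5.48) left out Hspa1a and Hspa1b. Equal replicate numbers did not pair arrays: over 18 pairs with the same number the deviations correlated at -0.08 to 0.09, and 4 of 12 arrays correlated best with their own number. With the replicate number as a block, 0 genes and 0 members were called for age, Dnajb1 was 0.63 (adjusted p 0.171), Hspa1a 1.14 (adjusted p 0.123), and the members' median 0.08. Hspa1a and Hspa1b lay near the dim end of the table, which limits their differences.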
